A study of Mus musculus with 11 samples.

Results

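The genes examined were those of the cytosolic glutathione S-transferases (GST), the UDP-glycosyltransferases (UGT) and the cytosolic sulfotransferases (SULT), the enzyme families that carry out phase II conjugation in the liver. They were taken by name, as every gene of the expression table whose symbol starts with a GST class letter, a UGT1, UGT2 or UGT3 subfamily or a SULT1 to SULT5 subfamily followed by a number. This gave 58 of the 23393 named genes, 21 GST, 20 UGT and 17 SULT genes. GST enzymes join glutathione to reactive electrophiles, UGT enzymes transfer a sugar, mostly glucuronic acid from UDP-glucuronate, and SULT enzymes transfer sulfate from the donor PAPS. The products are more soluble in water, leave the hepatocyte through transporters of the canalicular and sinusoidal membranes and are lost in bile or urine. Many of these genes are induced through xenobiotic receptors or NRF2, and several are expressed most strongly in hepatocytes around the central vein, where β-catenin signaling is active.

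RNA was sequenced from the livers of 11 male mice labelled GS WT that were injected at 7 weeks of age, with 1 library per mouse. The 3 control mice received vehicle and carry a time of 0 weeks in the labels, whereas the study calls them vector control. The 8 others received plasmids for c-Met, ΔN90-β-catenin and the SB10 transposase, and their livers were taken 2 weeks (4 mice) or 3 weeks (4 mice) later. The plasmids were delivered by hydrodynamic tail vein injection, so that the transposon enters only some hepatocytes, where an EF1α promoter drives human c-MET and a β-catenin that lacks its amino terminus. The livers are therefore mixtures of cells with and without the oncogenes. The comparison asks how gene expression differs at an early time after the oncogenes are introduced. If the controls were taken at 0 weeks, age and time since injection differ together with the oncogenes and cannot be told apart from them.

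The deposited values are RPKM, and read totals inferred from them were 17070000 to 27000000 per library. A gene of 2000 bases would show 3 reads, the detection limit used here, at 0.0556 to 0.0879 RPKM, and sampling of reads is the only error in that limit. In what follows a value after ± is an SD. Hepatocyte is the cell type given in the labels, but the tissue was whole liver. The hepatocyte marker Alb was at 48656 RPKM in the vector control livers, and markers of Kupffer cells and of liver endothelium were also present (Clec4f at 35.9 and Clec4g at 61.7 RPKM). In such bulk tissue, fewer cells of a type and less RNA per cell cannot be told apart. The β-catenin target Glul, which encodes glutamine synthetase, averaged 252 ± 13.4 RPKM in the 3 vector control livers and 717 ± 214 in the 8 with the oncogenes. Mouse Met and Ctnnb1, which the human transgenes would reach only through shared sequence, had log2 changes of 0.09 and 0.12 (limma, adjusted p = 0.631 and 0.432), and of -0.10 and -0.08 with median centring.

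Of the 58 genes, 42 had a mean of at least 0.5 RPKM over the 11 mice and were tested, and 41 of them reached 0.5 RPKM in the vector control livers alone. Sult3a1 was the exception, so it could enter the test only by being higher with the oncogenes. Compared with the vector control livers over both times, 3 of the 42 genes were higher (limma on log2(RPKM + 0.5), adjusted p under 0.05), where 3.96% of all 11170 tested genes were. These 3 genes were Gstm6, Gstm3 and Gstm2, all of the mu class of GST. None of the 42 was lower at this threshold, where 0.224% of all genes were, and 6 higher and 2 lower genes had an unadjusted p under 0.05, as had 2655 of all 11170 genes (limma). In every one of the 8 oncogene-expressing livers, 5 of the 42 genes were above all 3 vector control livers, against 6.87% of all genes. They were the 3 mu-class genes with Gstp2 and Sult3a1. No gene of the 42 was below all 3 controls in all 8 livers, against 0.636% of all genes.

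The level of all genes differed between the groups. The median log2 change over all tested genes was 0.15, and over the 42 genes it was 0.02, with 22 above and 20 below 0. Centring each library on its median moved the median of all genes by 0.20, and the median of the 42 genes was then -0.17 against -0.05 for all genes, with 11 above and 31 below 0. Below the median change of all genes lay 29 of the 42, and 24 with quantile normalization. After centring, 5 genes were higher and 12 were lower at an unadjusted p under 0.05, where 1972 of all 11170 genes were, and 3 were higher and 0 lower at an adjusted p under 0.05 (limma). Of all tested genes, 442 were higher and 25 lower without centring, 49 were higher and 46 lower with it, and 55 were higher and 23 lower with quantile normalization. The mouse numbers in the library names fall into separate series for the controls, for replicates 1 and 2 at 2 weeks and for the other 6 mice, so that series and condition cannot be told apart.

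**Figure D1:**
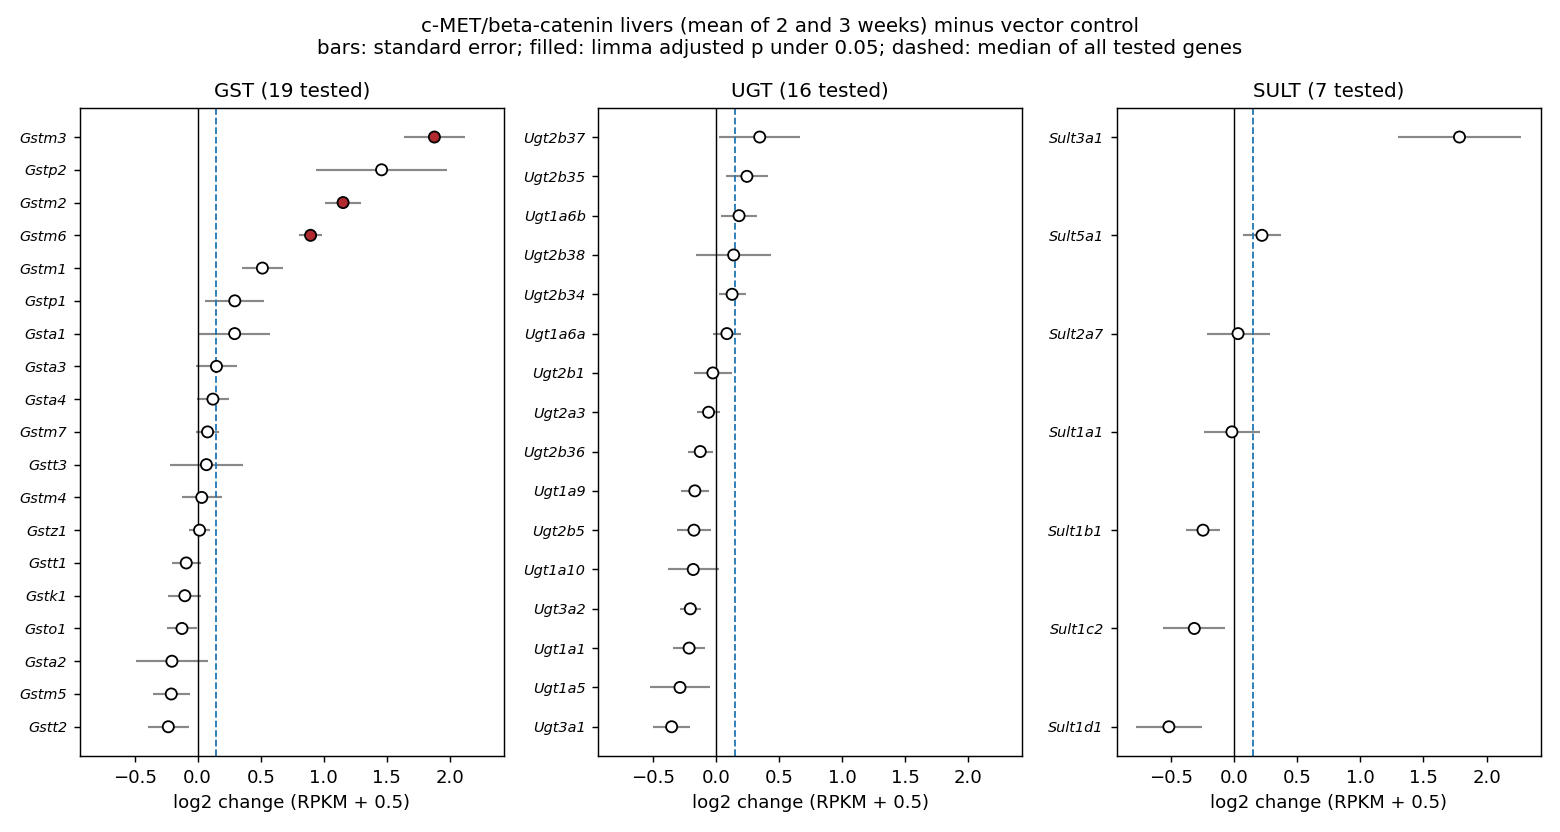
Each point is the log2 change of 1 tested gene, on the log2(RPKM + 0.5) scale, between the c-MET/β-catenin livers (mean of the 2-week and 3-week groups) and the vector control livers, with its standard error from limma, for 19 GST, 16 UGT and 7 SULT genes. Filled points have an adjusted p under 0.05, which only Gstm3, Gstm2 and Gstm6 do here, and the dashed line is the median change of all tested genes (0.15).

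The mu class conjugates a broad range of electrophiles, and its 7 genes in the table lie together on chromosome 3 from 107895821 to 108044894 (mm10), in the order Gstm5, Gstm7, Gstm6, Gstm3, Gstm2, Gstm1 and Gstm4. Gstm3 (107963696 to 107969283) was at 50.3, 49.4 and 47.4 RPKM in the 3 vector control livers, at 163, 126, 196 and 216 RPKM at 2 weeks and at 123, 320, 154 and 222 RPKM at 3 weeks. Gstm2 (107981702 to 107986453) was at 18.7, 21.4 and 20.1 RPKM in the controls, at 43.0, 46.2, 52.2 and 55.1 RPKM at 2 weeks and at 34.2, 55.4, 34.5 and 46.5 RPKM at 3 weeks. Gstm6 (107938847 to 107943749) was at 63.9, 57.6 and 52.2 RPKM in the controls, at 104, 105, 112 and 103 RPKM at 2 weeks and at 97.9, 126, 99.9 and 117 RPKM at 3 weeks. For all 3 genes the groups did not overlap, since the lowest liver with the oncogenes lay above the highest control in each. The mean of the 8 livers was 3.88 times that of the controls for Gstm3, 2.29 times for Gstm2 and 1.87 times for Gstm6. In log2 they changed by 1.88, 1.15 and 0.90, with standard errors of 0.24, 0.14 and 0.09 (limma, adjusted p = 0.00308, 0.00244 and 0.00113). Median centring left log2 changes of 1.68, 0.96 and 0.70 (limma, adjusted p = 0.00478, 0.00478 and 0.00569). The transcripts of these genes share 28.8%, 5.66% and 5.97% of their 50-base words with those of other genes, and how reads that map to several genes were counted is not stated, so the level of Gstm3 is the least certain of the 3.

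Gstm1, the most abundant gene of the class, was at 981, 840 and 725 RPKM in the vector control livers, at 1451, 1072, 1113 and 1149 RPKM at 2 weeks and at 1087, 1620, 933 and 1339 RPKM at 3 weeks. It was above every control in 7 of 8 livers, the exception being replicate 3 at 3 weeks. Its log2 change was 0.51 with a standard error of 0.16, which did not pass the threshold (limma, adjusted p = 0.0889). It passed without that mouse (limma, adjusted p = 0.0486; 0.0383 to 0.340 over the alternatives).

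The other 3 genes of the class, named here after their values were seen because they flank the higher ones, overlapped between the groups. Gstm7 was at 49.0, 42.6 and 46.2 RPKM in the vector control livers, at 57.8, 49.2, 45.1 and 51.4 RPKM at 2 weeks and at 47.2, 48.0, 40.8 and 49.8 RPKM at 3 weeks. Gstm4, at the other end, averaged 41.8 ± 3.34 RPKM in the 3 controls, 44.6 ± 11.6 in the 4 livers at 2 weeks and 42.1 ± 5.90 in the 4 at 3 weeks. Gstm5 averaged 13.0 ± 1.94, 13.0 ± 1.84 and 9.72 ± 2.18 RPKM in the same groups. The log2 changes of Gstm7, Gstm4 and Gstm5 over both times were 0.08, 0.03 and -0.21 (limma, adjusted p = 0.624, 0.917 and 0.394), and with median centring those of Gstm7 and Gstm4 were below 0, at -0.12 and -0.16, and that of Gstm5 was -0.41 (limma, adjusted p = 0.235). The higher genes thus stood next to each other in the chromosomal order, between genes that did not pass the threshold.

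**Figure D2:**
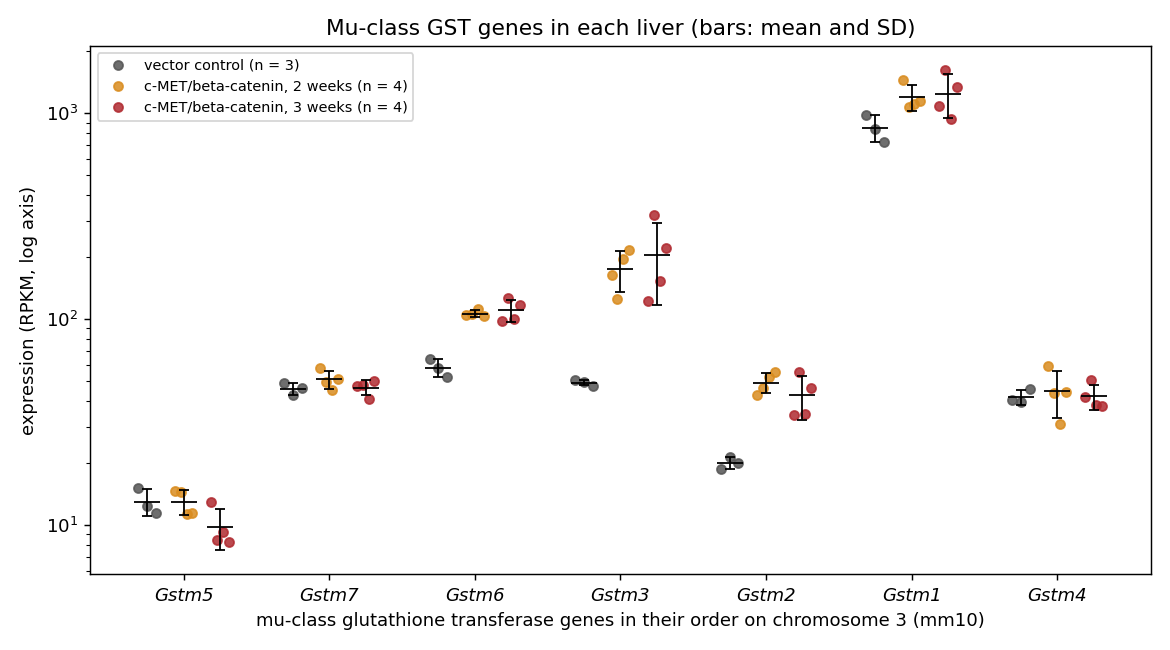
Each point is the expression of a mu-class GST gene in 1 liver, in RPKM on a log axis, for 3 vector control livers and, per time, 4 livers injected with c-MET/β-catenin 2 or 3 weeks before, with the genes in their order on chromosome 3. Horizontal bars are group means and vertical bars SDs. Gstm6, Gstm3 and Gstm2 have every liver with the oncogenes above every control, while Gstm5, Gstm7 and Gstm4 on either side overlap.

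The share of each gene in the summed RPKM of the class does not depend on the scaling of a library. Gstm3 held 4.59% ± 0.440 of the sum in the 3 vector control livers, 8.63%, 8.63%, 12.6% and 13.2% at 2 weeks and 8.50%, 14.4%, 11.7% and 12.2% at 3 weeks. Its share was higher in all 8 livers than in any control. The share of Gstm1 went from 78.7% ± 2.05 in the 3 controls to 73.1% ± 2.13 in the 8 other livers. The shares of Gstm4, Gstm5 and Gstm7 were 3.94%, 1.21% and 4.30% in the controls and 2.63%, 0.703% and 2.97% with the oncogenes. The class was therefore not only larger in sum but also differently composed.

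Within 100 kb on either side of the cluster the table holds 5 other genes, of which 4 were tested. One of them passed the threshold, 4933431E20Rik (107888850 to 107896213), which lies on the opposite strand and overlaps the start of Gstm5. Being under 0.5 RPKM in the controls, it was tested only because it was higher in the other livers, and so was Gnat2. Its values were 0.284, 0.339 and 0.401 RPKM in the controls and 0.488 to 0.821 RPKM in the 8 other livers (log2 change 0.52, limma, adjusted p = 0.0494). It passed in only 1 of 11 fits with a mouse left out and in 6 of all 21 alternatives, with the highest adjusted p at 0.422 with quantile normalization (limma). Whether the counting used strand is not given in the sources used here, so reads of the overlap cannot be assigned. Ampd2, which encodes an AMP deaminase, lies beyond Gstm4 and had a log2 change of 0.57 (limma, adjusted p = 0.0871). Gnat2 (0.358 RPKM in the controls) and Gnai3, which encode G protein subunits, had log2 changes of 0.51 and 0.19 (limma, adjusted p = 0.152 and 0.308). Eps8l3 was listed at 0 in every mouse.

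Since 3 neighbouring genes were higher together, the bases before their starts are shown, with Sult3a1 added because it was above the controls in every liver. Gstp2 was so too, but its sequence is not shown. The sequences are those before the start in RefSeq (GRCm38.p6, the build of mm10), up to 250 bases, without bases that the GENCODE annotation places inside the gene. Both strands were searched for CTTTGA, the core of the TCF/LEF motif through which β-catenin acts, for TGACNNNGC, the antioxidant response element bound by NRF2, and for TTCNNNGAA, bound by STAT5. In windows of 250 bases before 32851 RefSeq starts, 13.8% held CTTTGA, 10.2% held TGACNNNGC and 7.02% held TTCNNNGAA. Capitals mark matches. Gstm6 is chr3:107943750-107943984, Gstm3 chr3:107969284-107969424 and Gstm2 chr3:107986454-107986670, all on the minus strand, and Sult3a1 is chr10:33857472-33857720 on the plus strand.
Gstm6: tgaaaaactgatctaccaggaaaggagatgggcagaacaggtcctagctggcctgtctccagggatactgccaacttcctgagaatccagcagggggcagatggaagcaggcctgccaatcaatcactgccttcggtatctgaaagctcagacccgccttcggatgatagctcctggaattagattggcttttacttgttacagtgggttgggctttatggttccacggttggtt
Gstm3: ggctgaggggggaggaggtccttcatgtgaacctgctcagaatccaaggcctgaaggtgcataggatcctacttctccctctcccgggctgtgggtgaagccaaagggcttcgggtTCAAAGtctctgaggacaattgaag
Gstm2: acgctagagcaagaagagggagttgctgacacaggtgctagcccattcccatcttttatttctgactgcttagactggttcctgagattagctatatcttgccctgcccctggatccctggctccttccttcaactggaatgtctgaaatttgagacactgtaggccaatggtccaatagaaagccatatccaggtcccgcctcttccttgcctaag
Sult3a1: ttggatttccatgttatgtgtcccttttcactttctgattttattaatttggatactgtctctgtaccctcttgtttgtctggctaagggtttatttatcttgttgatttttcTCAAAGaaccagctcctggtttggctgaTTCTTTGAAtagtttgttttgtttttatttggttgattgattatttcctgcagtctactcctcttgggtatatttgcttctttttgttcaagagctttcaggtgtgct
The window of Gstm3 held 1 match to CTTTGA, read on the other strand, 134 bases before the RefSeq start. The window of Sult3a1 held 2, at 137 and 107 bases before the start, and the latter overlaps a match to TTCNNNGAA at 109 bases. The windows of Gstm6 and Gstm2 held none of the 3 motifs, nor did those of Gstm1, Gstm4, Gstm7 and Gstp2. That of Gstm5 held TGACNNNGC at 42 bases before the start. Among the 50 members with an entry in the RefSeq table, 11 held CTTTGA, 2 held TGACNNNGC and 3 held TTCNNNGAA. A match to such short letters describes the sequence only.

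The alpha class, whose Gsta3 detoxifies the epoxide of aflatoxin in mice, did not pass the threshold. Gsta3, the most abundant GST gene of the vector control livers, was at 1163, 1152 and 909 RPKM there, at 938, 1118, 1415 and 1002 RPKM at 2 weeks and at 1173, 969, 1566 and 1467 RPKM at 3 weeks. The groups overlapped, with the highest values in replicate 3 at 2 weeks and replicates 3 and 4 at 3 weeks. Its log2 change was 0.15, and -0.05 with median centring. The log2 changes of the 4 alpha genes were -0.20 to 0.29 (limma, adjusted p = 0.538 to 0.691). Gsta1 and Gsta2 share 90.5% and 49.8% of their 50-base words with other genes and are uncertain.

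The pi class holds Gstp1, one of the most abundant GST genes of the male mouse liver, and Gstp2 beside it on chromosome 19. Gstp1 was at 568, 456 and 449 RPKM in the vector control livers, at 943, 702, 374 and 630 RPKM at 2 weeks and at 517, 711, 426 and 673 RPKM at 3 weeks. Gstp2 was at 0.720, 0.474 and 0.934 RPKM in the controls, at 10.98, 1.08, 5.49 and 1.44 RPKM at 2 weeks and at 1.08, 4.32, 2.48 and 2.31 RPKM at 3 weeks. Gstp1 overlapped between the groups, and Gstp2 was above every control in all 8 livers, highest in replicate 1 at 2 weeks. The log2 changes were 0.29 with a standard error of 0.23 for Gstp1 and 1.46 with a standard error of 0.52 for Gstp2 (limma, adjusted p = 0.451 and 0.124). Without replicates 1 and 2 at 2 weeks, Gstp2 passed the threshold (limma, adjusted p = 0.0453; 0.0453 to 0.331 over the alternatives). Of the 50-base words of Gstp2, 54.3% also occur elsewhere, and it is far less abundant than Gstp1, which holds most of them, so its level is uncertain.

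The remaining GST classes had log2 changes of -0.23 to 0.07, and none passed. Gstz1, the maleylacetoacetate isomerase of tyrosine breakdown, was at 437, 434 and 441 RPKM in the vector control livers, at 395, 453, 446 and 427 RPKM at 2 weeks and at 488, 387, 479 and 470 RPKM at 3 weeks. Its controls lay within the range of the other livers, and its log2 change of 0.02 was -0.18 with median centring. The 3 tested theta genes, Gstk1 of mitochondria and peroxisomes and Gsto1, a reductase of the omega class, had adjusted p-values of 0.388 to 0.902 (limma). With median centring Gstt2 and Gsto1 were lower at an unadjusted p of 0.0320 and 0.0230, and did not pass (limma, adjusted p = 0.235 and 0.210).

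Of the UGT family 16 genes were tested and none passed. An unadjusted p under 0.05 was reached by 2 lower and 0 higher genes (limma; 7 lower and 0 higher with median centring, 3 lower and 0 higher with quantile normalization). Counted in both directions together, 2655, 1972 and 1555 of all 11170 genes reached it in these scalings. The median log2 change was -0.09 over the 16 genes, against 0.15 for all genes. With median centring these were -0.29 and -0.05, and with quantile normalization -0.09 and -0.01. Below the median of all genes lay 13 of the 16, and 11 with quantile normalization. The UGT1A genes are transcribed from separate starts at a single locus on chromosome 1, where each has its own exon 1 and all share the later exons. They share 52.1% to 79.8% of their 50-base words, so their levels depend on how shared reads were counted. Among them is Ugt1a1, which conjugates bilirubin and was at 26.3, 30.5 and 31.7 RPKM in the vector control livers, at 23.2, 22.5, 29.8 and 23.0 RPKM at 2 weeks and at 30.4, 20.8, 26.9 and 27.8 RPKM at 3 weeks. The groups overlapped. Ugt1a5 averaged 3.98 ± 0.424 RPKM in the 3 controls, 3.11 ± 0.441 in the 4 livers at 2 weeks and 3.52 ± 1.73 in the 4 at 3 weeks (log2 change -0.28, limma, adjusted p = 0.482). The 6 tested UGT1A genes had log2 changes of -0.28 to 0.18.

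The UGT2B enzymes, which conjugate steroids, bile acids and drugs, hold the most abundant UGT genes of these livers. Ugt2b5 was at 574, 588 and 669 RPKM in the vector control livers, at 622, 514, 402 and 585 RPKM at 2 weeks and at 564, 688, 502 and 493 RPKM at 3 weeks. Ugt2b36 was at 565, 548 and 648 RPKM in the controls, at 567, 526, 462 and 576 RPKM at 2 weeks and at 573, 606, 490 and 510 RPKM at 3 weeks. Ugt2b1 was at 476, 490 and 570 RPKM in the controls, at 414, 575, 346 and 566 RPKM at 2 weeks and at 519, 634, 521 and 503 RPKM at 3 weeks. All 3 overlapped between the groups, and replicate 3 at 2 weeks was the lowest liver for each. In log2 they changed by -0.17, -0.12 and -0.02 (limma, adjusted p = 0.452, 0.452 and 0.937). Ugt2b34 was at 221, 273 and 262 RPKM in the controls, at 203, 242, 253 and 277 RPKM at 2 weeks and at 277, 311, 342 and 315 RPKM at 3 weeks. All 4 livers at 3 weeks lay above the controls, and the change there did not pass the threshold (log2 change 0.31, limma, adjusted p = 0.109). Of the 50-base words of Ugt2b5, 41.7% also occur in other genes.

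The UGT3A enzymes use other UDP-sugars than UDP-glucuronate. Ugt3a1 was at 35.2, 27.9 and 34.1 RPKM in the vector control livers, at 23.3, 29.1, 22.5 and 26.9 RPKM at 2 weeks and at 32.1, 18.7, 23.0 and 28.3 RPKM at 3 weeks. It was below every control in 5 of 8 livers, with a log2 change of -0.35 and a standard error of 0.15 (limma, adjusted p = 0.180; 0.127 with median centring and 0.105 to 0.438 over the alternatives). Ugt3a2, named after its values were seen, was below every control in 7 of 8 livers, with means of 222 ± 19.6 RPKM in the 3 controls and 191 ± 16.8 and 195 ± 9.62 RPKM in the 4 livers at each time. Its log2 change was -0.20 (limma, adjusted p = 0.167), and -0.40 with median centring (limma, adjusted p = 0.0944). These were the 2 UGT genes with an unadjusted p under 0.05 without centring, and with it Ugt1a1, Ugt1a9, Ugt2a3, Ugt2b5 and Ugt2b36 were added.

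Of the SULT family 7 genes were tested and none passed, while 1 higher gene had an unadjusted p under 0.05 (limma). That gene was Sult3a1, on chromosome 10 from 33857721 to 33879532, which belongs to a subfamily that sulfates amines and is known as more strongly expressed in female than in male mouse liver. It was at 0, 0 and 0.053 RPKM in the vector control livers, at 0.774, 1.75, 2.36 and 0.593 RPKM at 2 weeks and at 0.739, 5.61, 1.40 and 0.289 RPKM at 3 weeks. Every liver with the oncogenes lay above every control and above the detection limit of this gene, which was 0.101 to 0.160 RPKM. A gene length of 1096 bases was inferred as the one at which the values of Sult3a1 come near whole reads. The deviation averaged 0.0241 reads and was largest in replicate 2 at 2 weeks, at 0.125. At this length the controls held 1 read in all and the 8 others 310, from 6 to 127 in a liver. Relative to the read totals this is a ratio of 112, with a counting interval of 20.0 to 4454 (exact, 95%), which leaves out the spread between mice. The fitted log2 change was 1.79 with a standard error of 0.49, which depends on the 0.5 added to each value (limma, adjusted p = 0.0611; log2 change 3.49 with 0.1 added). Sult3a1, at 0.0177 RPKM in the controls, entered the test only through the other livers, which fixed the direction of the fit and of the ratio. It passed the threshold without replicate 2 at 3 weeks, the highest liver, and without replicate 4, the lowest (limma, adjusted p = 0.0365 and 0.0470; 0.0201 to 0.210 over the alternatives).

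Of 18 listed genes known to be more strongly expressed in the female mouse liver, 10 were tested, of which 5 were higher and 0 lower, where 3.96% and 0.224% of all genes were (limma). The summed level of the list was 14.2, 13.6 and 16.3 RPKM in the vector control livers, 41.6, 61.4, 109 and 52.8 RPKM at 2 weeks and 34.0, 74.6, 66.3 and 70.1 RPKM at 3 weeks. The sum lay above the controls in all 8 livers, A1bg was its most abundant gene over all mice, and Cyp3a41b was listed at 0 in every mouse. A1bg, Akr1c18, Cyp2a4, Cyp2b9 and Cyp3a16 were the 5 higher genes, with log2 changes of 4.41, 3.18, 2.60, 1.70 and 1.68 (limma, adjusted p = 9.42e-06, 0.00388, 0.0129, 0.0228 and 0.0276). A1bg, Akr1c18 and Cyp2b9 were under 0.5 RPKM in the controls, at 0.333, 0.204 and 0.435, so they entered the test only through the livers with the oncogenes. Of the 7 genes that reached 0.5 RPKM in the controls 2 were higher, where 386 of 10735 such genes were (limma), with a median log2 change of 0.97 against 0.14. The log2 changes of A1bg, Akr1c18 and Cyp2b9 depend on the value added, and were 3.77 to 5.33, 2.52 to 4.40 and 1.32 to 2.28 over the alternatives. A1bg and Akr1c18 passed with any mouse left out, whereas without control replicate 1 Cyp2a4, Cyp2b9 and Cyp3a16 did not (limma, adjusted p = 0.0748, 0.0889 and 0.125). Cyp2b9 and Cyp3a16 also failed without either other control and with median centring. Of 14 genes more strongly expressed in the male liver 0 passed in either direction (limma), with a median log2 change of 0.16. Their part in the level of Sult3a1 was not tested.

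Sult1a1, which sulfates phenols and was the most abundant SULT gene, was at 169, 173 and 184 RPKM in the vector control livers, at 130, 145, 286 and 117 RPKM at 2 weeks and at 169, 164, 239 and 191 RPKM at 3 weeks. Sult1d1, which acts on dopamine and other catecholamines, was at 47.9, 60.3 and 61.8 RPKM in the controls, at 26.6, 33.7, 68.9 and 34.7 RPKM at 2 weeks and at 32.7, 31.3, 63.4 and 39.5 RPKM at 3 weeks. For both genes replicate 3 was the highest liver of its group at 2 weeks and at 3 weeks. For Sult1d1 the other 6 livers lay below every control, and its log2 change of -0.52 with a standard error of 0.26 did not pass (limma, adjusted p = 0.245). Sult1a1 had a log2 change of -0.02 (limma, adjusted p = 0.968). Sult1b1, which sulfates thyroid hormones, and Sult1c2 had log2 changes of -0.25 and -0.32 (limma, adjusted p = 0.269 and 0.440). Sult5a1 averaged 26.6 ± 2.72 RPKM in the 3 controls, 34.3 ± 2.90 in the 4 livers at 2 weeks and 28.7 ± 7.63 in the 4 at 3 weeks (log2 change 0.22, limma, adjusted p = 0.393).

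**Figure D3:**
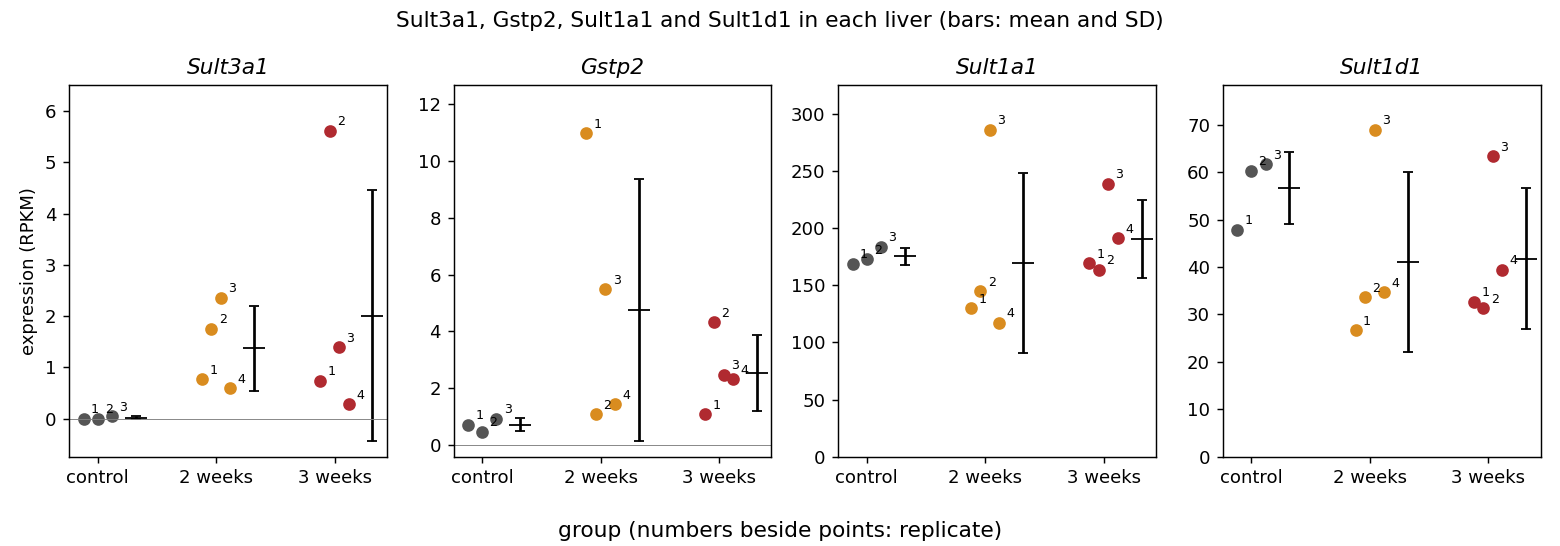
Each point is the expression of a gene in 1 liver, in RPKM, with its replicate number, for 3 vector control livers and 4 livers each at 2 and 3 weeks. Bars to the right are the mean and SD of the group. Sult3a1 and Gstp2 are above every control in all 8 livers with the oncogenes, and replicate 3 is the highest at both times for Sult1a1 and Sult1d1.

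The 16 genes under the filter were 10 SULT, 4 UGT and 2 GST genes, and their highest value in any mouse was 0.482 RPKM. Among them, Sult1c1, Sult2a1, Sult2a3, Sult2a4, Sult2a5, Ugt2a1 and Ugt2a2 were listed at 0 in every mouse. Ugt2a1 and Ugt2a2 share 97.0% and 93.6% of their words with other genes, so an exact 0 is uncertain there. Sult1e1, the estrogen sulfotransferase, reached 0.270 RPKM, Sult2b1 0.103, Sult4a1 0.101, Sult2a2 0.071, Sult2a6 0.038, Ugt1a2 0.270, Ugt1a7c 0.196, Gsto2 0.482 and Gstt4 0.182 RPKM. Nearest to the filter of 0.5 RPKM were Gsta1 and Sult3a1 above it, with means of 0.801 and 1.23 RPKM over all mice, and Ugt1a2 and Gsto2 below it, with 0.112 and 0.0995 RPKM.

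Summed over its genes, the GST family averaged 3691 ± 321 RPKM in the 3 vector control livers, 4428 ± 276 in the 4 livers at 2 weeks and 4621 ± 373 in the 4 at 3 weeks. The lowest liver with the oncogenes, at 4171 RPKM, lay above the highest control, at 4002 RPKM. The mu class went from 1077 ± 136 RPKM in the 3 controls to 1668 ± 299 in the 8 other livers, which is most of this difference. The UGT sum averaged 2645 ± 200 RPKM in the controls and 2519 ± 242 in the 8 livers, and the SULT sum 277 ± 15.1 and 270 ± 73.4 RPKM. As ratios to the control mean, the sums were 1.23 for GST, 0.952 for UGT and 0.975 for SULT. With median centring the ratios were 1.07, 0.830 and 0.851, where the GST sum averaged 4073 ± 306 in the controls and 4367 ± 424 in the 8 livers. No test was made on the sums.

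Each time was also compared with the same 3 vector control livers, so the results at 2 and 3 weeks share them. At 2 weeks 3 of the 42 genes were higher, where 0.278% of all tested genes were, and 0 were lower, where 0.00895% were (limma; 6 higher and 1 lower with an unadjusted p under 0.05, as had 1342 of all genes). At 3 weeks 3 were higher, where 8.11% of all genes were, and 0 were lower, where 0.358% were (limma; 6 higher and 1 lower with an unadjusted p under 0.05, as had 3470 of all genes). With median centring all tested genes split into 25 higher and 10 lower at 2 weeks, in place of 31 and 1, and into 54 higher and 67 lower at 3 weeks, in place of 906 and 40. With quantile normalization they split into 18 and 5 at 2 weeks and into 67 and 25 at 3 weeks. These shares also depend on single mice: with each left out in turn, 7 to 60 of all genes were called at 2 weeks and 118 to 1098 at 3 weeks, and without replicates 1 and 2 at 2 weeks 221 and 1782 (limma). The 3 genes were Gstm2, Gstm3 and Gstm6 at either time. The log2 changes at 2 weeks were 1.27, 1.80 and 0.87 (limma, adjusted p = 0.00549, 0.0198 and 0.00458), and at 3 weeks 1.04, 1.95 and 0.92 (limma, adjusted p = 0.00848, 0.00611 and 0.00246). At 2 weeks Gstm3 did not pass when control replicate 1, 2 or 3 or 2-week replicate 4 was left out (limma, adjusted p = 0.0949, 0.127, 0.0912 and 0.0562; 0.00317 to 0.127 over the alternatives). Between 3 and 2 weeks 0 of the 42 genes differed, as did 0% of all genes (limma), and 2 had an unadjusted p under 0.05, as had 1411 of all genes, Ugt2b34 with a log2 change of 0.36 and Gstm5 with -0.41 (limma, adjusted p = 0.340 and 0.362).

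The supply of the conjugating groups was followed in fixed lists, given with their most abundant genes over all mice. Of 10 tested genes for UDP-glucuronate, led by Ugp2 at 148 RPKM in the vector control livers, 0 passed over both times (limma, median log2 change 0.12). At 3 weeks the nucleotide sugar transporter Slc35d1 was higher (log2 change 0.52, limma, adjusted p = 0.0417), though only in 4 of 11 fits with a mouse left out and 12 of all 23 alternatives (highest 0.350 with median centring, at a log2 change of 0.25). Of 9 genes for PAPS, led by Papss2 at 62.3 RPKM and the sulfate transporter Slc26a1 at 53.1 RPKM, 0 passed (limma, median log2 change 0.19). Of 13 genes for glutathione, led by Cth and Lap3, 0 were higher and 1 was lower. This was Chac1, which degrades glutathione, with means of 5.35 ± 1.32 RPKM in the 3 controls and 2.62 ± 0.541 in the 8 other livers, all below every control (log2 change -0.90, limma, adjusted p = 0.0232). It passed in 9 of 11 fits with a mouse left out (highest 0.115 without control replicate 1). Of 8 other glutathione transferases, led by the microsomal Mgst1 at 4396 RPKM and Clic4, 0 passed (limma, median log2 change 0.05).

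Among 16 other conjugating enzymes, led by Gnmt and Inmt, 1 was higher and 0 lower. It was Nat8, the acetyltransferase that completes mercapturic acids from glutathione conjugates, which averaged 27.2 ± 3.91 RPKM in the 3 controls and 43.4 ± 9.93 in the 8 other livers, all above every control (log2 change 0.64, limma, adjusted p = 0.0274). It passed in 7 of 11 fits with a mouse left out (highest 0.143 without control replicate 3). Among the transporters, led by Slco1b2 and Slc10a1, the conjugate exporter Abcc4 was higher and the bile acid transporter Slc10a1 lower at 3 weeks, with log2 changes of 0.92 and -0.29 (limma, adjusted p = 0.0384 and 0.0490). These passed in 4 of 10 and 1 of 11 fits with a mouse left out and in 11 of 21 and 8 of 23 alternatives, with highest values of 0.237 with quantile normalization and 0.165 without control replicate 3 (limma, adjusted p). Abcc4 was at 0.211 RPKM in the controls and so entered the test only through the other livers.

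Regulators and their known targets were listed as well. Of 15 NRF2 targets other than the GST and UGT genes, led by Ephx1 and Osgin1, 1 was higher and 0 lower, the sulfiredoxin gene Srxn1 (log2 change 0.48, limma, adjusted p = 0.0474; 3 of 11 fits with a mouse left out), with a median log2 change of 0.21 over the list. Srxn1 passed in 8 of 22 alternatives, with the highest value under median centring (log2 change 0.28, limma, adjusted p = 0.217). Of 18 xenobiotic receptors and regulators, led by Hnf4a and Cebpa, 0 passed over both times (limma, median log2 change 0.09). Of 10 targets of these receptors, led by Cyp3a11 and Aldh1a1, 0 passed (limma, median log2 change -0.03). Of 20 pericentral and β-catenin genes, led by Cyp2e1 and Rgn, 13 were higher and 0 lower, where 3.96% and 0.224% of all genes were (limma), with a median log2 change of 1.12 against 0.15 over all genes. At 2 weeks 5 of the 20 were higher, where 0.278% of all genes were, and at 3 weeks 14, where 8.11% were (limma). The 13 were Glul, Axin2, Rhbg, Nkd1, Slc13a3, Oat, Lhpp, Slc1a2, Lgr5, Lect2, Tbx3, Sp5 and Tnfrsf19, with log2 changes of 0.79 to 2.10, and Rnf43 joined them at 3 weeks (log2 change 1.23, limma, adjusted p = 0.0448; 4 of 11 fits with a mouse left out and 13 of 23 alternatives, highest 0.216 with quantile normalization). Of the 13, Nkd1, Rhbg, Slc13a3 and Lhpp passed with any mouse left out, and each other gene failed without at least 1 control, Lgr5 with the highest value (limma, adjusted p = 0.172 without control replicate 1). Sp5, at 0.446 RPKM in the controls, entered the test only through the other livers, and without it 12 of 19 were higher. Of 15 periportal genes, led by Pck1, 0 passed over both times (limma, median log2 change 0.11), and Gls2 was higher at 3 weeks (log2 change 0.43, limma, adjusted p = 0.0448; 4 of 11 fits with a mouse left out and 12 of 23 alternatives, highest 0.533 with median centring).

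Markers of cell types were listed last. Of the hepatocyte, cholangiocyte, Kupffer cell, neutrophil, endothelial and proliferation markers, 0 passed in either direction over both times (limma), and of the lymphocyte, stellate and erythroid markers 1 each was higher. These were Cd79b, Col1a1 and Hbb-bs, with log2 changes of 0.83, 0.87 and 0.80 (limma, adjusted p = 0.0495, 0.0133 and 0.0437), and they passed in 2, 9 and 2 of 11 fits with a mouse left out. Over all alternatives they passed in 6 of 21, 19 of 21 and 8 of 22, with highest values of 0.422 for Cd79b with quantile normalization and 0.0810 and 0.185 for the others without control replicate 1 and 3 (limma, adjusted p). Cd79b and Col1a1 were at 0.178 and 0.433 RPKM in the controls and entered the test only through the other livers. The lymphocyte markers summed to 0.808 to 2.12 RPKM in the controls, 2.21 to 4.15 RPKM at 2 weeks and 2.79 to 6.09 RPKM at 3 weeks. The hepatocyte markers summed to 64760 to 72890, 54430 to 70360 and 48570 to 58040 RPKM in the same groups, so that all 4 livers at 3 weeks lay below every control. The proliferation markers summed to 1.34 to 2.02, 2.54 to 4.07 and 2.35 to 3.13 RPKM, with all 8 livers above every control. The Kupffer cell markers summed to 101.9 to 103.5, 91.04 to 120.2 and 108.9 to 127.4 RPKM. The stellate markers summed to 19.93 to 22.03, 16.59 to 28.64 and 24.8 to 29.41 RPKM. For both, all 4 livers at 3 weeks lay above every control, but the sums are RPKM without centring. At 3 weeks the median log2 change over all tested genes was 0.21. It was 0.30 over the Kupffer cell markers, and 0.20 over the 5 stellate markers that reached 0.5 RPKM in the controls. The erythroid markers summed to 248.9 to 311.2, 341.2 to 509.1 and 298.9 to 394.2 RPKM, with all 4 livers at 2 weeks above every control. The cholangiocyte, neutrophil and endothelial sums overlapped the controls at both times. No test was made on these sums.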

How the data were processed

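The authors extracted liver RNA, used HISAT2 (mm10) and featureCounts, and they deposited RPKM values for 11 livers. The library kit differs between the labels (rRNA depletion) and the methods (stranded mRNA), and the read total and the strand setting are not given in the sources used here. Of 23420 gene names, 27 made of digits were not used. Values were fitted as log2(RPKM + 0.5) with limma 3.58.1 in R 4.3.3, with an intensity trend, the 3 groups fitted together without covariates, for 11170 genes of mean RPKM at least 0.5. The call was an adjusted p under 0.05 (Benjamini-Hochberg, over all of these genes). The fit was tested on simulated data, and the outcome is not reported here. Read totals were inferred from low values, of which 43.7% to 55.7% were whole reads within 0.06. Shared words were counted in GENCODE M21 transcripts.

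Genes named are those called, the 4 most abundant of each family, the 5 largest rises and 5 largest falls, and of each list the called genes and the 2 most abundant, of which some are not reported here. The members and lists were chosen with earlier results of these data known. Alternatives were other pseudocounts, filters, scalings, variance models, samples in the fit, a replicate block, a 2-fold threshold and leaving out mice.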

Additional observations from a re-analysis of the deposited data

Results flagged for a closer look

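Of 46 groups of 4 livers examined (23 genes at 2 times), 4 held a liver far from the other 3, where chance gives about 1 in 20 groups, or 2.3. At 2 weeks replicate 3 had 286 RPKM of Sult1a1, above the other 3 livers at 117 to 145 RPKM, and 38.6 RPKM of Sult5a1, above the others at 32.3 to 33.3 RPKM. Replicate 1 at 2 weeks had 8.49 RPKM of Sult1b1, below the others at 11.1 RPKM or more. At 3 weeks replicate 2 had 634 RPKM of Ugt2b1, above the others at 503 to 521 RPKM. None of these genes had an adjusted p under 0.05, no liver was left out for these values, and no cause was tested.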

How the results depend on the processing

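The count of members called over both times was 3, and 6 with array weights, where 1541 of all 11170 genes were called in place of 467. At 3 weeks it was 3, and 7 with array weights, of which Gstm5 was lower, where 3005 of all genes were called in place of 946. With each mouse left out in turn it was 3 to 4 over both times and at 3 weeks, 2 to 3 at 2 weeks and 0 between the times. Gstm2, Gstm3 and Gstm6 had an adjusted p under 0.05 over both times in all 22 alternatives to the fit, with highest values of 0.0277, 0.0277 and 0.0171. With a 2-fold change required as well, 2 members were called over both times and at either time (Gstm6 was lost) and 0 between the times, and with median centring 1 over both times, Gstm3. Of all 11170 genes, 86 were then called over both times, 28 at 2 weeks, 124 at 3 weeks and 0 between the times. With median centring 31 of all genes were called over both times at that threshold. At 2 weeks Gstm3 also missed the threshold with no filter and with the replicate block (limma, adjusted p = 0.0767 and 0.0563). The number of all genes called over both times was 32 to 637 with each mouse left out, lowest without control replicate 1, so it depends on single controls, and 1513 without replicates 1 and 2 at 2 weeks.

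The labels do not say whether equal replicate numbers pair the mice, and the main fit did not pair them. With group means removed, same-numbered livers at 2 and 3 weeks correlated at 0.2156, 0.0364, 0.2802 and 0.0683. Differently numbered livers of these groups correlated at -0.2368 to 0.1294. Whether mice of the same number share an origin was not tested. With the replicate block 4 members were called over both times, 2 at 2 weeks, 4 at 3 weeks and 0 between the times, where 93, 23, 350 and 0 of all genes were called in place of 467, 32, 946 and 0, and Sult1a1 had a log2 change of 0.0507.

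Of 23 named members, 16 kept their direction in every alternative, and none of the other 7 was called over both times in any of them. With median centring the log2 changes of Gsta3, Gstz1, Ugt2b34, Gstm4, Gstm7, Met and Ctnnb1 were -0.0469, -0.181, -0.0681, -0.1636, -0.1176, -0.1032 and -0.0796. Quantile normalization gave -0.0095 for Gstz1, -0.0433 for Gstm4 and -0.0339 for Met, and rescaling to the same sum 0.0064 for Ugt2b1 and 0.012 for Sult1a1. Without 2-week replicates 1 and 2, Sult1a1 was 0.0855 and Gstm4 -0.0806. With single mice left out, the ranges were -0.0018 to 0.0536 for Gstz1, -0.0755 to 0.0555 for Ugt2b1, -0.1601 to 0.0537 for Sult1a1, -0.0407 to 0.1137 for Gstm4 and -0.0051 to 0.185 for Met. The causes were not tested. Of 25 called list genes, 6 kept their call in every alternative. Depth limits genes under about 0.1 RPKM, such as Sult3a1 in the controls.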
